A study of Mus musculus with 4 samples.

Results

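Of 20021 protein-coding genes with a curated RefSeq transcript on mouse chromosomes 1 to 19, 5034 had no ATAC-seq peak within 2000 bp of any of their start sites in any of 4 adipose libraries. These genes, called peakless below, are 25.1% of the coding genes and were chosen by that distance alone, so the absence of a promoter peak is the rule and not a result. A further 2545 genes had a promoter peak in 1 to 3 libraries and 12442 had one in all 4. ATAC-seq uses a transposase that inserts sequencing adapters into accessible DNA, and a peak is a place where such insertions pile up above the local background. A missing peak means that accessibility was not detected at the depth of these libraries, which the deposited peak lists do not state.

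The tissue was visceral fat from CD-1 mice, which are bred as an outbred stock. The study's text gives 8 weeks as the age of the mice it used and no separate age for the sampled descendants. The 2 control libraries are from unexposed descendants of dams given sesame oil, and the 2 BPA libraries from unexposed descendants of dams that received 50 mg/kg of bisphenol A (BPA), a monomer of plastics, by injection between embryonic days 7.5 and 13.5. The study's text gives 4 mice, the generation of the BPA animals differs between labels and text, the list of BPA replicate 2 carries another replicate number than its label, and neither sex nor batch was given. The tissue is a mixture, so a promoter that is open in a rare cell type and one that is weakly open in every cell cannot be told apart.

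As background, promoters of genes that every cell uses are mostly rich in G+C and in the dinucleotide CG, lack DNA methylation and stay accessible in all tissues. Promoters of genes used in a narrow set of cells more often have few CG dinucleotides and are packed into nucleosomes elsewhere. Large tandem gene families, such as the receptors for smell, are kept in compact chromatin outside the cells that choose one of them.

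Promoters of 5 peakless genes and of 1 adipocyte gene are shown for what separates the classes, with every CG dinucleotide and every TATAAA in capitals. Each runs from 250 bases before to 50 bases after a RefSeq start site (GRCm38.p6, the assembly that mm10 names), 5′ to 3′ on the strand of the gene. Olfr859, an olfactory receptor, lies at chr9:19808070-19808369 on the plus strand and is the member of median G+C content of the family with the most peakless genes. Vmn1r251, a type 1 vomeronasal receptor, lies at chr7:22201215-22201514 on the minus strand and has the median G+C content of its family. Mip, which encodes the main water channel of the eye lens, lies at chr10:128225560-128225859 on the plus strand. Alb, the albumin gene of hepatocytes, lies at chr5:90460620-90460919 on the plus strand. H2ac19, a replication-dependent histone gene, lies at chr3:96240325-96240624 on the minus strand and had the highest CG ratio of all peakless genes. Adipoq, the adiponectin gene, lies at chr16:23146286-23146585 on the plus strand and had a promoter peak in 4 libraries. Vmn1r251, Alb and Adipoq were chosen after their values were seen.
Olfr859: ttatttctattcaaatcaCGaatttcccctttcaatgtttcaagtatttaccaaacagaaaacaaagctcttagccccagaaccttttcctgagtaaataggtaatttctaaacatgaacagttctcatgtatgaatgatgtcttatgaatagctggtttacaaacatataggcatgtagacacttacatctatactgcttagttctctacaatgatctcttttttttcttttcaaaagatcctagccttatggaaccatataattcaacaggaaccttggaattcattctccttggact
Vmn1r251: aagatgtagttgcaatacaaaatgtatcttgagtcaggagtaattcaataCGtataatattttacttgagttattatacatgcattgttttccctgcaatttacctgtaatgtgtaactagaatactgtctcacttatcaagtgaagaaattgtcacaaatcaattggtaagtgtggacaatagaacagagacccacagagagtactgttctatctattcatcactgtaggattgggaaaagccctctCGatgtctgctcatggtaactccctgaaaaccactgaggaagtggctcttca
Mip: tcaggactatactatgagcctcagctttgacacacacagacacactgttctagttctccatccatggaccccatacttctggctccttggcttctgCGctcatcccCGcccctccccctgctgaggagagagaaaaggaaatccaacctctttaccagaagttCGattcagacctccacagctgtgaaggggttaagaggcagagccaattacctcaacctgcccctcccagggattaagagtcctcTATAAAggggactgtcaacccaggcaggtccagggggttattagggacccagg
Alb: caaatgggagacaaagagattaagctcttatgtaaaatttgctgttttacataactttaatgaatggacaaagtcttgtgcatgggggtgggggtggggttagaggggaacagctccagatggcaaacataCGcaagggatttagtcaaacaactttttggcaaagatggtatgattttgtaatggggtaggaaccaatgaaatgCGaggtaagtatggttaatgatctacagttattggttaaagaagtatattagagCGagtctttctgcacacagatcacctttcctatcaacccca
H2ac19: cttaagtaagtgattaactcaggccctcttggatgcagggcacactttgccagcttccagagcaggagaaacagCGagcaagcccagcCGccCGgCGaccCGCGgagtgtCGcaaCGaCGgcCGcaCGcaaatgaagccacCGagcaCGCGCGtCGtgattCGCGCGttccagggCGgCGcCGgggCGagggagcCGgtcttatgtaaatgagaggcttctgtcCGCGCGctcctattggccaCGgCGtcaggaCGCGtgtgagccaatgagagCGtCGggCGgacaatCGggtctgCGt
Adipoq: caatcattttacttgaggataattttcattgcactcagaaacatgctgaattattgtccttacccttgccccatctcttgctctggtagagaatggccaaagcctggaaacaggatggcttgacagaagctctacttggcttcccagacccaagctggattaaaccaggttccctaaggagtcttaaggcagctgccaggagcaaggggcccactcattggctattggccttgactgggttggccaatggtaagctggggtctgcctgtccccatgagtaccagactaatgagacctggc
The annotated transcripts of Olfr859 and Vmn1r251 begin at an ATG, with no untranslated 5′ end. Whether the windows printed for them hold their promoters was not tested. The Olfr859 window held 1 CG dinucleotide in 300 bases and the Vmn1r251 window 2, whereas H2ac19 held 36. Mip and Alb held 3 each. The Adipoq promoter held 0 and had a peak in 4 libraries all the same. The nearest peak of any library lay 63.4 kb from the start of Olfr859, 1578 kb from Vmn1r251, 5.44 kb from Mip, 5.80 kb from Alb and 2.59 kb from H2ac19.

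By the rule, each library on its own left at least as many genes without a promoter peak as the 4 together. Of 20021 genes, the numbers were 6555 and 6663 in controls 1 and 2, and 6310 and 5638 in BPA 1 and 2. The libraries held 72375 to 98060 peaks each. Both BPA values lay below both control values, and the mean was 6609 ± 76.4 (SD, n = 2) for controls but 5974 ± 475 (SD, n = 2) for BPA. With 2 libraries per group the smallest two-sided p-value of an exact permutation test is 0.333, so that test could not pass 0.05 here. BPA 2 gave 403 genes their only promoter peak, against 186 for control 1, 186 for control 2 and 44 for BPA 1.

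Nearly every gene with little unique sequence around its start sites was peakless. The authors kept uniquely mapped reads only. For each gene the share of 50-base sequences within 2000 bp of its start sites that occur once in the genome was computed. This share only stands in for how well reads can be placed, as read length and pairing were not used. All 429 genes with a share under 25% were peakless, as were 188 of 190 genes with a share of 25 to 50%. Where the share was 99% or more, 1359 of 8949 genes were peakless, or 15.2% (95% Wilson interval 14.5 to 15.9%). The median share was 96.1% for peakless genes and 99% for genes with a promoter peak in 4 libraries. Among the 17772 genes with a share of at least 90%, 3374 were peakless, or 19%.

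The largest group of peakless genes was the chemosensory receptors. Olfactory, vomeronasal, trace amine and bitter taste receptors together supplied 1417 of the 5034 genes, or 28.1%, and 94.5% of the 1500 genes of these families were peakless against the 25.1% of all coding genes. Among olfactory receptors, which bind odorants in the nasal epithelium, 1030 of 1101 were peakless. Type 1 vomeronasal receptors, which detect pheromones, had 226 of 228 and type 2 receptors 118 of 121. Trace amine receptors, a small family that detects volatile amines, had 13 of 15 and bitter taste receptors had 30 of 35. Of the olfactory receptors with at least 90% unique sequence around the start, 749 of 815 were peakless, or 91.9%. The share was thus nearly as high where most of the sequence is unique.

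The start sites of these receptors are less certain than those of other genes. Of 876 peakless olfactory receptors with a sequence in the RefSeq promoter table, 637 had a transcript that begins at an ATG, or 72.7%, and 276 of 315 peakless vomeronasal receptors did so. The share was 6.75% for the other peakless genes and 1.17% for genes with a promoter peak in 4 libraries. No untranslated 5′ end is annotated for such a transcript, and how far upstream its promoter lies was not tested. With the start sites of the GENCODE vM21 annotation added, a choice made after seeing the data, 47 of 1021 matched peakless olfactory receptors had a peak within 2000 bp and 89.3% of the family stayed peakless.

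Olfactory receptors with a promoter peak were mostly found in 1 library. Of the 71, 53 had their peak in 1 library and 8 had it in 4. Promoter peaks at olfactory receptors numbered 42 in control 1 and 35 in control 2, and 12 in BPA 1 and 19 in BPA 2, the opposite order to that of all coding genes. The 3 type 2 vomeronasal receptors with a peak, Vmn2r1, Vmn2r100 and Vmn2r110, each had it in 1 library.

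Families of secreted defence, hair and skin proteins came next. All 28 alpha-defensins, antimicrobial peptides of intestinal Paneth cells, were peakless, as were 35 of 42 beta-defensins, which epithelia secrete. Little sequence was unique at the alpha-defensins, whose median unique share was 18.3%, against 96.7% at the peakless beta-defensins. Keratin-associated proteins, which build hair, had 49 of 56 peakless genes and late cornified envelope and small proline-rich proteins of the outer skin had 31 of 35. All 11 Skint genes, expressed in skin and thymus, were peakless with a median unique share of 97.5%. Keratins, which also include members of simple epithelia, had 38 of 53. Krt7, Krt8, Krt18 and Krt19, keratins of simple epithelia and mesothelium, were among the 15 keratins with a promoter peak.

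Families with reproductive, urinary and glandular roles were similarly short of promoter peaks. Of the prolactin family, largely placental hormones, 23 of 25 were peakless, as were 12 of 13 pregnancy-specific glycoproteins. Major urinary proteins, pheromone carriers made in liver, had 21 of 22, with a median unique share of 16.0%. Secretoglobins, proteins of lung and gland secretions, had 32 of 34, with a median unique share of 53.3%. PRAME-like proteins, which are expressed in germ cells and early embryos, also had 32 of 34, with a median unique share of 57.9%. Kallikreins, secreted serine proteases, had 23 of 27. Type I interferons, the antiviral cytokines induced by infection, had 17 of 18, and Ifnb1 alone had a promoter peak, in 4 libraries. NLRP proteins had 15 of 18, and Nlrp3, the inflammasome sensor of macrophages, was among the 3 with a peak.

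Enzymes and transporters of liver and kidney lay between these families and the background. Cytochrome P450 families 2 to 4, which metabolise steroids, fatty acids and drugs, had 54 of 77 peakless genes. UDP-glucuronosyltransferases had 12 of 19, solute carrier family 22, a group of organic ion transporters, had 13 of 25 and organic anion transporters had 8 of 14. Killer cell lectin-like receptors of natural killer cells had 19 of 27. Interleukins had 16 of 37, with Il2, Il3, Il5, Il17a and Il22 among the peakless ones.

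Channels, neurotransmitter receptors and developmental transcription factors lay on both sides of the 25.1% of all coding genes. Potassium channels had 15 of 92, or 16.3%, and voltage-gated sodium channels 2 of 10. Glutamate receptors had 5 of 19, near that share, whereas GABA-A receptor subunits had 7 of 16, serotonin and dopamine receptors 7 of 18 and nicotinic receptor subunits 8 of 16. Proneural factors, which start the formation of neurons, had 6 of 18. Hox genes, which set position along the body axis, had 4 of 39, namely Hoxd4, Hoxb8, Hoxb13 and Hoxc12. Sox, Tbx and Fox factors had 9 of 75 and Pax, Lhx, Nkx and Pou factors 13 of 46. Zfp zinc finger proteins had 48 of 386, and the median unique share of those 48 was 46.9%.

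Families that every cell uses had almost no peakless gene. Of the cytosolic ribosomal proteins 3 of 81 were peakless, namely Rpl10l, Rpl32l and Rpl39l, whose symbols mark them as like copies of a ribosomal protein gene. The proteasome had 1 of 39, Psma8, a subunit of the germ cell proteasome. NADH dehydrogenase had 1 of 46, Ndufb4c. In all, 19 of 48 families had 80% or more peakless genes and 9 lay below the 25.1% of all coding genes. The 48 families covered 2161 of the 5034 peakless genes, and 569 others had only a predicted-gene (Gm) or clone (Rik) symbol.

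**Figure D1:**
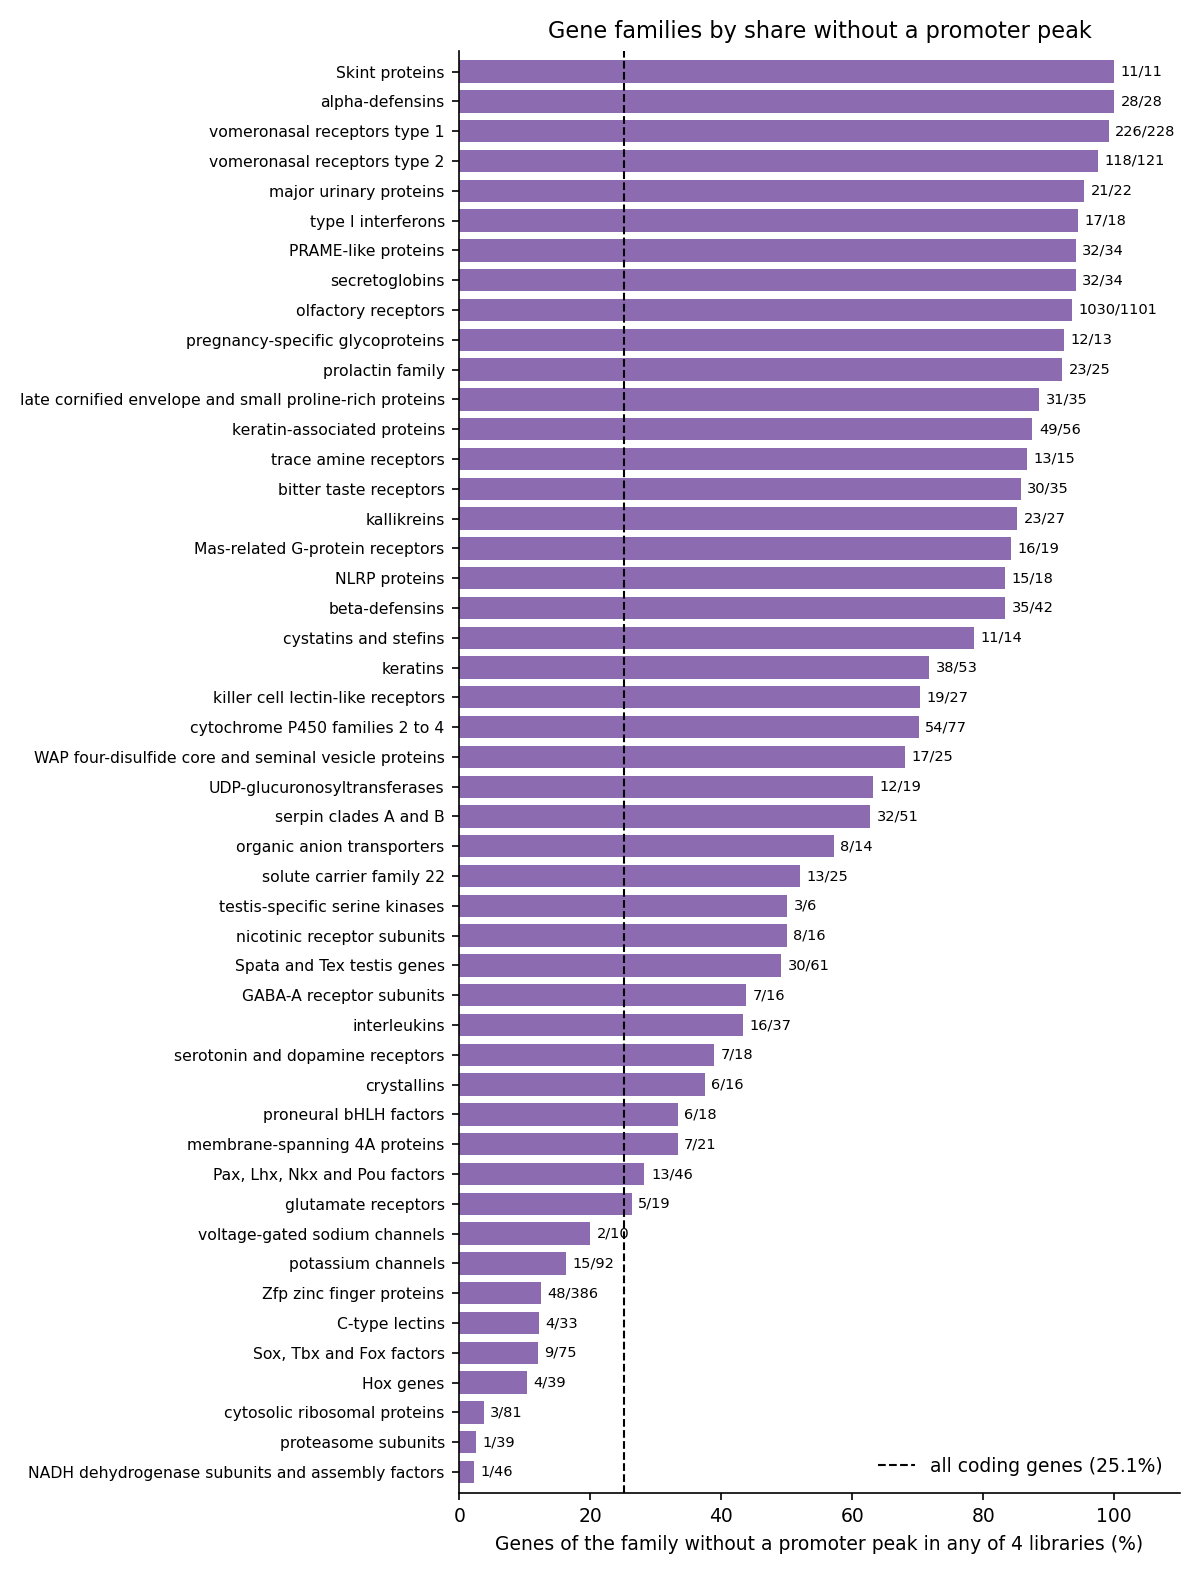
Share of genes without a promoter peak in any of 4 libraries for 48 gene families (bars, in percent, with the number of peakless genes over the number of genes in the family), and the share over all coding genes (dashed line, 25.1%). Alpha-defensins and Skint proteins reach 100%, olfactory receptors stand at 1030 of 1101, and ribosomal proteins, the proteasome and NADH dehydrogenase lie under 4%.

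Marker genes of cells that visceral fat holds were seldom peakless when the 4 libraries were pooled, but single libraries differed. Across 7 lists of such cells, 7 of 66 genes were peakless, or 10.6%, against 25.1% of all coding genes. The adipocyte list had 0 of 10, and each of its genes, among them Adipoq, Plin1, Lep and Pparg, had a promoter peak in all 4 libraries. The endothelial and fibroblast lists each had 0 of 10 and the mesothelial list had 0 of 6. By single library, the endothelial list had a promoter peak at 3 genes in each control and at 10 in each BPA library. Control against BPA counts were 3 and 3 against 7 and 9 for macrophages. They were 5 and 6 against 9 and 9 for smooth muscle and pericytes, and 9 and 10 against 10 and 10 for fibroblasts. Mesothelial counts were 6 and 4 against 5 and 3, and lymphocyte counts 5 and 1 against 2 and 3. The macrophage list had 1 of 10, Cd163, a scavenger receptor for haemoglobin, whose nearest peak lay 16726 and 16806 bp from its start in the controls and 15057 and 15039 bp in BPA. The smooth muscle and pericyte list also had 1 of 10, Cnn1, which encodes the contractile protein calponin, with a nearest peak 2832 to 2906 bp away in the 4 libraries.

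Lymphocyte genes were the exception among the cells of fat, with 5 of 10 peakless. Cd3e and Cd3g, subunits of the T cell receptor complex, had their nearest peak at 9040 bp and 5682 bp. Cd4 and Cd8a, the coreceptors of helper and cytotoxic T cells, had it at 2672 bp and 11743 bp. For Cd4 the distance was 2672 bp in BPA 1 and 2733 bp in BPA 2 but 15475 bp in control 1 and 15460 bp in control 2, so the nearby peak was called in the BPA libraries only. Pax5, the B cell identity factor, lay 2028 bp from a peak of BPA 2 and was peakless by a narrow margin. Its gene body, by contrast, held a peak in all 4 libraries.

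In the lists of other cells and tissues, 163 of 275 marker genes were peakless, or 59.3%. Of these 29 lists, 25 lay above the 25.1% of all coding genes and 11 had 80% or more peakless genes. Pancreatic islet genes had 9 of 10, including Ins1, Ins2, Gcg and Sst, the hormones of the islet, and Pdx1, a factor that activates insulin. Small intestine genes also had 9 of 10, including the digestive enzymes Lct and Sis and the factor Cdx2. Stomach genes had 8 of 9, and acinar, photoreceptor, oocyte, lung epithelium, pituitary and tooth and bone genes had 8 of 10 each. Placenta had 7 of 8 and the milk proteins had 6 of 7. The unique share around these 163 genes had a median of 99.1%, and 15 of them were under 90%.

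In the lists where 3 or fewer genes had a promoter peak, those genes had it in 1 to 4 libraries. Ppy, the pancreatic polypeptide gene, had a peak at 559 bp in BPA 2 and at 936 bp in BPA 1, whereas the nearest control peaks lay 3879 and 3906 bp away. Atp4b, a subunit of the gastric proton pump, had its peak over the start in control 2 alone. Opn1sw, an opsin of cones, Gapdhs, a glycolytic enzyme of sperm, Mos, an oocyte kinase, Dmp1, a bone matrix protein, Scgb1a1, the main secretoglobin of airway cells, and Slc22a8, a kidney transporter, had a peak in BPA 2 only. Nphs1, a podocyte protein, had one in BPA 1 only. Fabp1, the liver and gut fatty acid carrier, Lalba, a milk protein, Cela1, a pancreatic elastase, Tssk6, a spermatid kinase, Gdf9, an oocyte growth factor, and Foxj1, the ciliogenesis factor, had one in 4 libraries. Rbpjl of the acinar list and Slc12a3 of the kidney list had one in 3, and Gnat1, Tnp2, Gcm1, Ghrhr, Gh and Klk4 in 2.

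Mast cell and erythroid genes, whose cells fat and its blood can also hold, were counted with the other tissues and had 5 of 9 and 5 of 10 peakless. Liver, muscle and nervous system lists were split. Hepatocyte genes had 7 of 12 peakless, among them Alb and the fibrinogen genes Fga, Fgb and Fgg, whereas Apoa1, Apoa2, Ttr, Ahsg and Serpinc1 had a peak in at least 1 library. Spermatid genes had 7 of 10, including the protamines Prm1 and Prm2 that replace histones in sperm. Neuronal genes had only 2 of 10, Gad1 and Rbfox3, and cochlear hair cell genes had 2 of 10. Skeletal muscle had 3 of 10, namely Ckm, Myod1 and Myh4. The olfactory sensory neuron list had 1 of 6, Ano2, in contrast to the receptors that these neurons express.

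**Figure D2:**
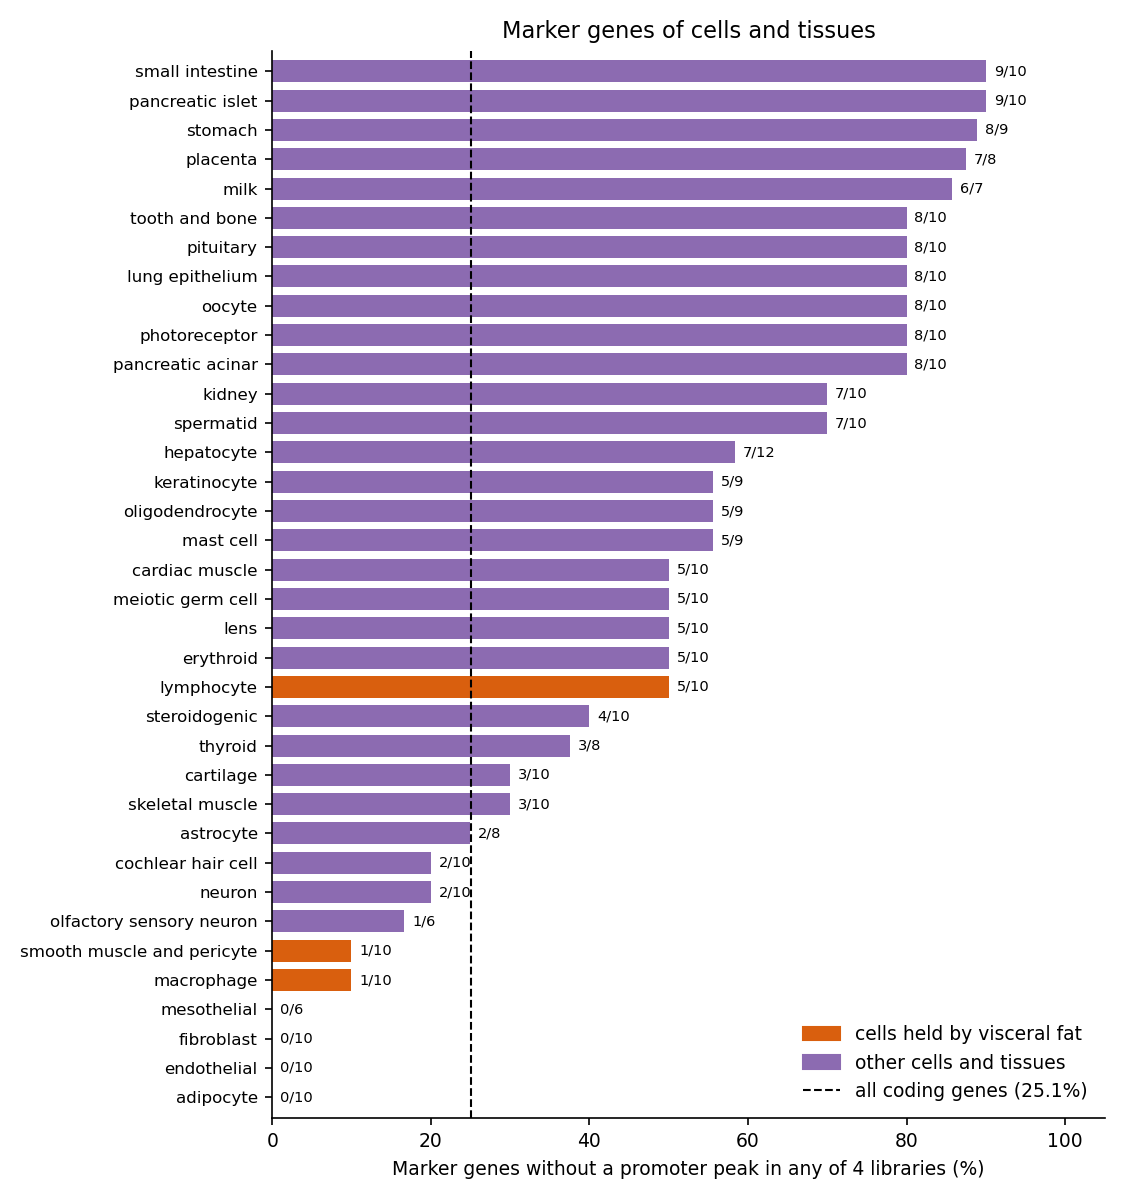
Share of marker genes without a promoter peak in any of 4 libraries (bars, in percent, with counts) for 36 lists of cells and tissues, in orange for cells that visceral fat holds and in purple for others, and the share over all coding genes (dashed line, 25.1%). Adipocyte, endothelial, fibroblast and mesothelial lists stand at 0, and the islet and small intestine lists at 9 of 10.

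Peakless genes had promoters low in G+C. The median G+C content within 500 bp of the start sites was 45.1% (quartiles 39.5 and 51.0%) for peakless genes, 53.7% for genes with a peak in 1 to 3 libraries and 59.0% (quartiles 54.5 and 63.9%) for genes with a peak in 4. Peakless chemosensory receptors had a median of 38.4% and the other 3617 peakless genes 48.0%, so the difference from genes with a peak in 4 libraries did not rest on the receptors. With all coding genes cut into 10 equal classes by promoter G+C content, 84.9% of the lowest class, up to 41.6% G+C, were peakless (Wilson interval 83.3 to 86.4%). The share fell to 25.2% in the fourth class and to 1.90% (1.39 to 2.60%) in the highest. Among promoters of at least 90% unique sequence the medians were 45.7% for peakless genes and 59.2% for genes with a peak in 4 libraries.

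The CG dinucleotide separated the classes further. The ratio of observed to expected CG in the same window had a median of 0.169 for peakless genes, 0.355 for genes with a peak in 1 to 3 libraries and 0.719 for genes with a peak in 4. Of the peakless genes 198, or 3.93%, had a CpG-rich promoter, defined as at least 50% G+C and a ratio of at least 0.6, against 69.0% of the genes with a peak in 4 libraries. The share was 3.35% among peakless genes with at least 90% unique sequence. In the RefSeq promoter table, which held 4080 of the peakless genes, the median number of CG dinucleotides in 300 bases was 2, against 21 for genes with a peak in 4 libraries. No CG at all was present in 656 of these peakless promoters, or 16.1%, and in 300 of 876 peakless olfactory receptors, as against 0.311% of the promoters with a peak in 4 libraries.

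The 198 peakless CpG-rich promoters were a mixed set, and 62 of them had under 50% unique sequence. Of the 10 with the highest CG ratio, the unique share was under 30% for Ccl21b, a chemokine of lymphoid tissue, Tagap1, BC107364, Cep43, a centrosomal protein, and H2ac23, and it was 51.5% for H2ac19. The unique share was 97.5 to 100% for the other 4. Jph3, a junctional membrane protein of neurons, had a ratio of 1.02 with its nearest peak at 12.1 kb, and Hoxc12, a homeobox gene of the trunk and limb, had 0.956 with a peak at 6.23 kb. Hmx1, a homeobox gene of the eye and ear, had 0.961, and Rbmxl2, a retrotransposed gene of male germ cells, had 0.945 with its nearest peak 49.6 kb away. Cdx1, a homeobox gene of the intestine, had the second highest G+C content at 72.8%, between Hmx1 at 71.3% and Ccl21b at 75.5%. The lowest were 3 olfactory receptors, Olfr510 at 25.9%, Olfr291 at 26.8% and Olfr1130 at 27.8%. Among 178 Hox, Pax, Lhx, Nkx, Pou, Sox, Tbx, Fox and proneural factors, 32 were peakless and 11 of these had a CpG-rich promoter, including Hoxc12.

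**Figure D3:**
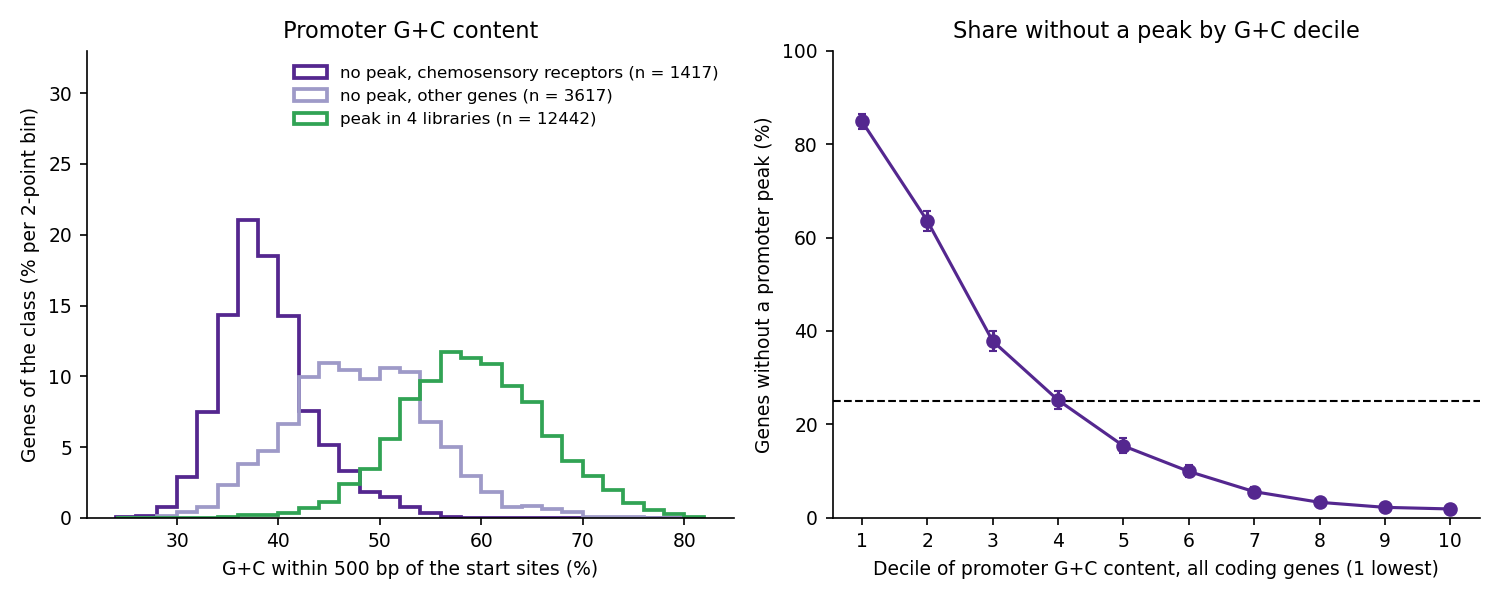
Left, distribution of promoter G+C content (percent, 500 bp either side of the start sites) for peakless chemosensory receptors, the other peakless genes and genes with a promoter peak in 4 libraries, as percent of each class. Right, percent of genes without a promoter peak in each of 10 equal classes of coding genes by G+C content, with 95% Wilson intervals and the overall 25.1% as a dashed line; the share falls from 84.9% to 1.90%.

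Short motifs also differed between the classes. On either strand of the 300-base window, TATAAA, the core of the TATA box, was present in 28.6% of peakless promoters, 13.3% of all 15996 coding promoters in the table and 6.72% of promoters with a peak in 4 libraries. At the position where a TATA box acts, its first base lies 40 to 20 bases before the start on the sense strand. There it was present in 6.67% of peakless promoters, 2.96% of all and 1.14% of those with a peak in 4 libraries. The annotated start was an ATG for 27.2% of these peakless genes and 1.17% of genes with a peak in 4 libraries. For such genes this position relative to the true start is uncertain. GGGCGG, the GC box, was present in 11.1% of peakless promoters and 48.3% of all. TGACGTCA, the cAMP response element, was present in 0.564% and 2.45%, and CACGTG, an E-box, in 3.65% and 8.15%. GGGCGG, TGACGTCA and CACGTG each contain a CG dinucleotide, whereas TATAAA holds neither G nor C. The part of G+C content in these shares was not tested. Of the motifs without a fixed CG, CCCNNGGG was present in 9.02% of peakless promoters and 15.7% of all, and CCAAT in 42% and 39.1%.

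Peakless genes lay next to one another along the chromosomes. Of 5018 peakless genes with a neighbour on each side, 47.2% had both nearest coding neighbours peakless, against 13.9% of all coding genes and 2.69% of genes with a promoter peak. With genes of under 90% unique sequence taken out of the gene order, 33.6% of the remaining peakless genes had both neighbours peakless. The same share over all genes of that reduced order was not computed. The rule and the window are shared by genes that lie close together, so neighbours are not independent. With chemosensory receptors taken out of the gene order the share was 33% for the peakless genes that remained and 2.21% for the others. The 5034 genes formed 2028 runs of consecutive peakless genes, of which 1392 held 1 gene and 96 held 10 or more. Runs of 10 or more held 1819 genes, or 36.1% of the total.

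The longest runs were chemosensory receptor clusters. The longest had 101 genes over 4.09 Mb of chromosome 7, from Ceacam20 to Vmn1r183, with 86 type 1 vomeronasal receptors and a median unique share of 2.23%. Runs of 54 genes from Olfr1124 to Olfr1193 and of 47 genes from Olfr1016 to Olfr1085 lay on chromosome 2, with median unique shares of 96.6% and 91.0%. The run of 49 genes on chromosome 17 from Olfr110 to Esp1 joined 30 olfactory receptors to Esp1, which encodes a pheromone peptide of tear fluid. Runs of 38 genes were found at 2 places on chromosome 7, from Olfr593 to Hbb-bs and from Trim30d to Olfr692, with 34 olfactory receptors in each. The first of these ended at Hbb-bs, an adult beta-globin gene, which lies beside olfactory receptors in the mouse genome.

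Runs without chemosensory receptors were shorter and often lay where little sequence is unique. The longest held 31 genes over 3.43 Mb of chromosome 2, from Zfp831 to Zfp931, mainly Zfp and Gm genes, with a median unique share of 0%. Runs of 29 genes were the secretoglobins of chromosome 7 from Scgb2b1 to Scgb1b30, with a median unique share of 52.5%, the defensins of chromosome 8 from Defa21 to Defb1, with 19%, and a Gm cluster of chromosome 14 from Sftpd to Ear1, with 14.2%. The run of 28 genes with the hair keratin-associated proteins of chromosome 16, ending at Krtap21-1, had a median unique share of 96.6%, and a run of 24 Krtap, Gm and Rik genes on chromosome 11 from Krtap4-7 to Krtap17-1 had 87.8%.

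Chromosomes differed in their share of peakless genes. It was highest on chromosome 7, with 774 of 1973 genes or 39.2%, and lowest on chromosome 12, with 97 of 623 or 15.6%. Chemosensory receptors made up 401 of the 774 on chromosome 7 and 274 of the 534 on chromosome 2. Without them the shares ranged from 15% on chromosome 19 to 28.2% on chromosome 14.

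**Figure D4:**
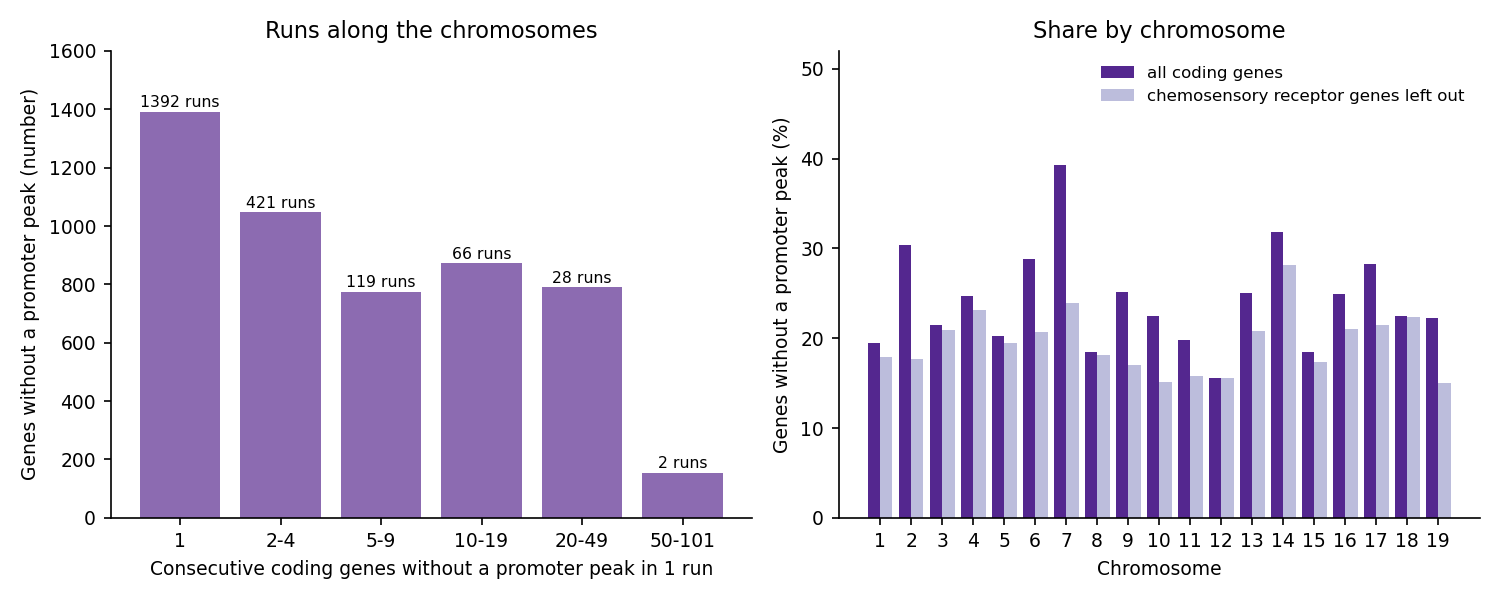
Left, number of peakless genes in runs of consecutive peakless genes of each length, with the number of runs above each bar; 1392 genes stood alone and 155 lay in the 2 longest runs. Right, percent of coding genes without a promoter peak on each chromosome, over all coding genes and with chemosensory receptors left out, which lowers chromosome 7 from 39.2% to 23.9%.

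The nearest peak of any library was often far away. The median distance from the start sites was 17.7 kb (quartiles 5.86 and 59.0 kb), with 11.9 kb for genes other than chemosensory receptors and 42.8 kb for the receptors. The distance was 5 kb or less for 1061 genes, or 21.1%, and over 100 kb for 820 genes, or 16.3%, of which 361 were chemosensory receptors. Just outside the limit of 2000 bp were Gm35549 at 2001 bp, Gm19345 at 2003 bp and Gm11541 at 2006 bp. Just inside it were Clec2e at 1996 bp, Tnnt1, a troponin of slow muscle, at 1993 bp and Dct, a pigment enzyme of melanocytes, at 1992 bp. In all, 53 peakless genes lay within 100 bp beyond the limit and 43 genes lay within 100 bp inside it.

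The genes farthest from any peak lay near the start of chromosome 14. They were Gm2897 at 4700 kb, Gm5795, D830030K20Rik, Gm2956 and Gm10413 at 4354 kb, and the unique share around them was between 0% and 29%. The longest stretch between neighbouring peaks that held a peakless gene was 3756 kb on chromosome 7 with 90 peakless genes, from Vmn1r91 to Vmn1r174. Next were 2940 kb on chromosome 2 with 27 genes, 2927 kb on chromosome 7 with 23 genes from Vmn2r30 to Vmn2r52, 2902 kb on chromosome 12 with 4 genes and 2726 kb on chromosome 14 with 28 of 29 genes. The median unique share of the genes in these 5 stretches was at most 28.3%. In order of length the stretches held 50000, 450000, 50000, 0 and 250000 unsequenced bases of the assembly, which are part of their lengths. Stretches of 200 kb or more held 1452 peakless genes, or 28.8% of the total.

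Some peakless genes still had a peak in the gene body, meaning the transcribed span farther than 2000 bp from every start site of the gene. Such a body existed for 3349 of the 5034 genes, and the other 1685 were too short. A body peak in at least 1 library was found in 1179, or 35.2% (Wilson interval 33.6 to 36.8%), against 64% of the 17750 coding genes with a body and 71.2% of those with a promoter peak in 4 libraries. Of the peakless genes 511 had a body peak in all 4 libraries, 199 in 3, 222 in 2 and 247 in 1. By library the share was 24.5% and 25.8% in the controls, and 21.9% and 27.3% in BPA 1 and 2, with both control values inside the range of the BPA values. Among peakless genes with at least 90% unique sequence around the start, 1088 of 2294 had a body peak, or 47.4%.

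Peakless genes were short, and the share with a body peak rose with body length in both classes. The median transcribed span was 5383 bp for peakless genes and 23376 bp for genes with a promoter peak in 4 libraries. At equal body length the share was lower for peakless genes from 2 kb upwards. It was 16.1% against 25.5% at 2 to 5 kb, 29.9% against 44.9% at 5 to 10 kb, 33.6% against 69.0% at 10 to 20 kb, 49.4% against 88.7% at 20 to 50 kb and 75.7% against 98.5% at 50 to 100 kb. Wilson intervals of the 2 classes overlapped only for bodies up to 2 kb, at 7.50% and 10.0%. Chemosensory receptors had a body peak in 10 of 236 genes, and the other peakless genes in 1169 of 3113, or 37.6%.

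Few of these body peaks lay by another annotated start site. By definition a body site lies more than 2000 bp from every curated coding start of its own gene, so only other starts could count. The same share was not computed for genes with a promoter peak. Merged over the libraries and counted per gene there were 3962 body sites, of which 706 had a peak in 4 libraries and 1886 in 1. A start site of any RefSeq transcript, curated or predicted, lay within 2000 bp of 508 sites, or 12.8%, and of 152 of the 706 sites found in 4 libraries, or 21.5%. At least 1 body site away from every such start was present in 1095 peakless genes, or 32.7% of those with a body. The median fold of body peaks over the local background was 3.88 and 4.10 in controls 1 and 2, and 5.56 and 4.93 in BPA 1 and 2. These folds were slightly below the median of all peaks in each library, which was 3.91, 4.29, 5.69 and 5.01 in the same order.

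The strongest body peaks were ranked by their worst rank by q-value over the 4 libraries. Spaca6, which encodes a sperm protein needed to fuse with the egg, had the best. Its peak at chr17:17837488-17838848, 7.19 kb from its start, was within the best 0.905% and 0.441% of peaks in the controls, and 0.0718% and 0.511% in BPA 1 and 2. No start of any RefSeq transcript lay within 2000 bp of it. The same held for Ssc4d, a scavenger receptor gene, M1ap, a meiosis gene, Fstl3, which encodes a secreted inhibitor of activin, and Sp100, a component of nuclear bodies. Their worst ranks were 4.31%, 4.69%, 4.82% and 5.14%. The folds at Fstl3, 3.15 kb from its start, were 6.47 and 7.45 in the controls, and 12.7 and 9.99 in BPA 1 and 2.

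At 4 more of the best ranked genes the body peak lay by a start site of another gene. At Tmc4 it lay by the start of Leng1, at Cldnd2 by that of Etfb, a mitochondrial electron carrier, and at Patl2 by that of B2m, the light chain of class I histocompatibility molecules. At Mfsd4b5 it lay by the start of the pseudogene Mfsd4b3-ps. These body peaks therefore cannot be told apart from promoters of the neighbouring transcripts.

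Long peakless genes nearly always held body peaks, as did other long genes. More of the long peakless genes held one in each control library than in each BPA library. Of 205 peakless genes with a body over 100 kb, 95.6% had a body peak in any library, with 175 and 183 genes in the controls, and 136 and 156 in BPA 1 and 2. Both controls held more peaks than both BPA libraries in 67 of the 205 genes, or 32.7%, against 22.2% of all coding genes with such a body. The opposite was true of 18, or 8.78%, against 21.2%. The 10 longest were mainly genes of neurons and cell adhesion, and in each of them both control counts exceeded both BPA counts. Rbfox1, a neuronal splicing factor with a body of 1518 kb, held 20 and 24 peaks in controls 1 and 2, against 8 and 12 in BPA 1 and 2. Sntg1, a syntrophin of neurons, held 17 and 18 in the controls and 0 and 1 in BPA. Dcc, the netrin receptor of growing axons, held 11 and 13 against 0 and 0, Cntn5, a neuronal adhesion molecule, 16 and 12 against 3 and 2, and Kcnip4, a potassium channel subunit, 11 and 15 against 2 and 2. Epha6, Tenm2, Agbl1, Spag16 and Nell1 showed the same order, and these 10 genes were chosen for their length.

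Other measures of peaks, around peakless genes and at other genes, differed between the groups in part. Body peaks of peakless genes over 100 kb numbered 15.4 and 18.9 per Mb in controls 1 and 2, and 10.3 and 15.4 per Mb in BPA 1 and 2, so on this scale the groups met at control 1 and BPA 2. For bodies up to 10 kb the density was 27.4 and 29.2 per Mb in the controls and 28.6 and 38.6 in BPA. Relative to the density in genes with a promoter peak in 4 libraries, that of peakless genes was 0.413 and 0.441 in the controls and 0.362 and 0.357 in BPA. The median distance from a peakless gene to the nearest peak of the same library was 29.8 and 28.4 kb in controls 1 and 2, against 49.8 and 39.2 kb in BPA 1 and 2. Promoter peaks at the 10 endothelial marker genes numbered 3 in each control and 10 in each BPA library. Those at the 10 macrophage markers numbered 3 and 3 against 7 and 9. Of these markers only Cd163 was peakless. Of all coding genes, 32.7 and 33.3% lacked a promoter peak in the controls, and 31.5 and 28.2% in BPA 1 and 2. Other lists did not show this order, with 6 and 4 against 5 and 3 for mesothelial genes and 5 and 1 against 2 and 3 for lymphocyte genes. Adipocyte genes had 10 in every library. The part of cell composition and of library quality in these differences was not tested, and no test between the groups was run on them.

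**Figure D5:**
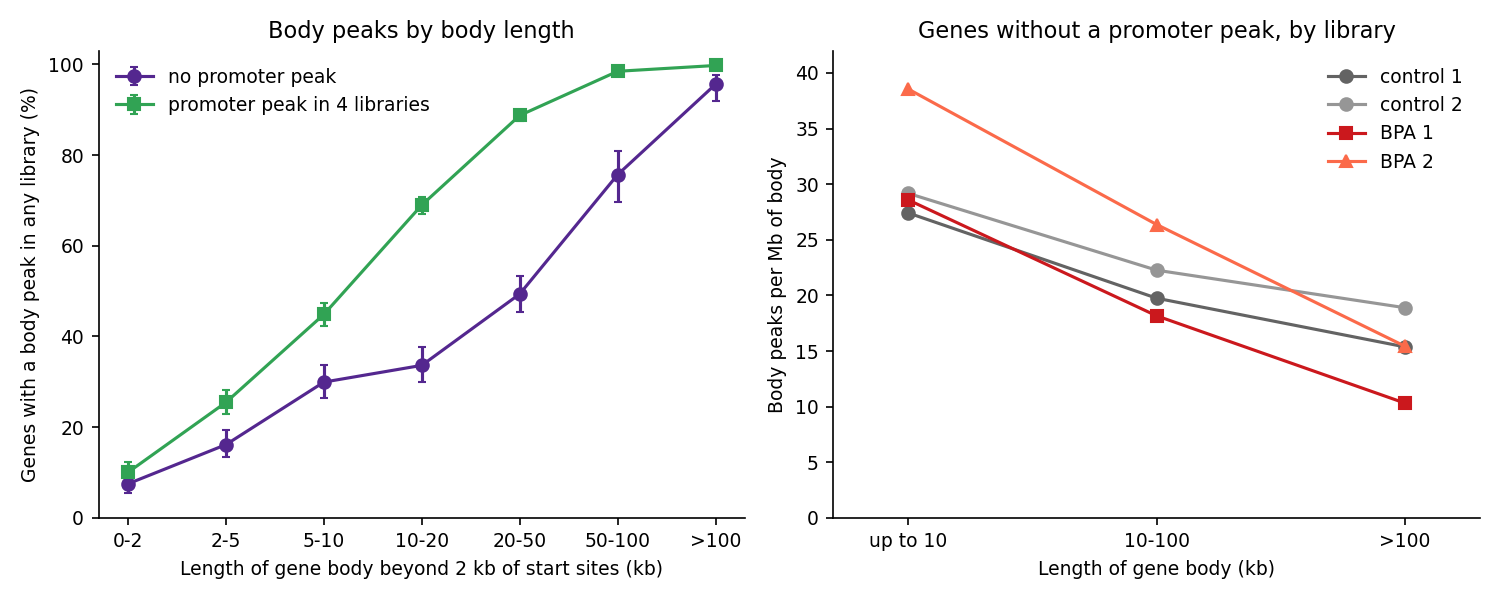
Left, percent of genes with a body peak in any library by body length (kb), for peakless genes and for genes with a promoter peak in 4 libraries, with 95% Wilson intervals. Right, body peaks per Mb of body of peakless genes by body length in each library; BPA 2 is highest at 38.6 per Mb for short bodies and control 2 at 18.9 per Mb for bodies over 100 kb.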

How the data were processed

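The authors trimmed the ATAC-seq reads with Trim Galore, mapped them to mm10 with Bowtie2 2.3.5.1, kept uniquely mapped reads without PCR duplicates (SAMtools) and called peaks on each library with MACS2 2.2.7.1. They deposited 1 peak list per library. The deposited values were a score, the ratio (fold) of the pile-up at the summit over local background, −log10 p-values and −log10 q-values, and the summit's offset from the peak start, counted in bases. The lowest deposited −log10 q-value was 1.30 to 1.31 in each list. These values were used only to filter, rank or describe peaks.

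Start sites were the 24860 distinct 5′ ends of curated coding RefSeq transcripts on chromosomes 1 to 19 of GRCm38.p6. A gene was peakless when no peak of any library lay within 2000 bp of any of them. G+C content and the CG ratio were averaged over a gene's start sites, 500 bp either side. Uniqueness was the share of 50-base sequences within 2000 bp that occur once in the assembly on either strand. Neighbours and runs follow the order of coding genes by their lowest coordinate. Motifs were searched in RefSeq promoter sequences (GRCm38.p6). Python 3.11.15, numpy 2.4.6, pandas 2.3.3 and scipy 1.17.1 were used, and distances, bodies and uniqueness were tested on simulated or directly counted cases. Wilson intervals (95%) cover counting error only.

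The members, the 48 families (by gene symbol) and the 36 marker lists were chosen with earlier results of these data known, and the symbol patterns of a few families were corrected after a first look. Named genes followed a fixed rule: peakless genes of the fat cell lists, genes with a promoter peak in other lists with 3 or fewer such genes, the extremes of CG ratio, G+C content, run, stretch and distance, and the best ranked body peaks, of which 1 is not reported here. The printed promoters of Olfr859, H2ac19 and Mip also followed a fixed rule. Other genes are examples chosen after their values were seen. No test between groups or between gene classes was run.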

Additional observations from a re-analysis of the deposited data

How the results depend on the processing

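The number of peakless genes was 5034 and stayed within a factor of 1.5 under every alternative tried except 1, the best 20000 peaks of each library, with which it was 8163. It was 5892, 5572 and 3973 at 500, 1000 and 5000 bp from a start site, 4758 with predicted start sites and 4570 with GENCODE start sites, an alternative added after seeing the data. Leaving out each library in turn gave 5078 to 5437 peakless genes, 33.8 to 35.1% with a body peak, a median G+C content of 45.1 to 45.7% and 45.4 to 48.3% with both neighbours peakless. The share with a body peak was 31% at 500 bp, 32.0% at 5000 bp, 32.1% with −log10 q-values of 5 or more, 19.3% with the best 20000 peaks and 31.5% with predicted start sites. The median G+C content was 45.9% at 500 bp, 45.6% at 1000 bp, 43.7% at 5000 bp, 45.5% with −log10 q-values of 5 or more, 48.7% with the best 20000 peaks and 45.7% in a window from 250 bp before to 50 bp after the start. The share with both neighbours peakless was 49.6% at 5000 bp, 45.2% with the best 20000 peaks, 48.9% with predicted start sites and 33.4% without olfactory and vomeronasal receptor genes. Of 47 alternative values, 29 lay within the interval of the main value (or, for the number of genes, within 1.5 times) and 18 outside it. No paired analysis was possible because each of these values is taken over the peaks of all libraries together and comes from no comparison of the groups. The lists hold no read depth, so genes missed for depth and inaccessible genes cannot be told apart, and start sites missing from the annotation add peakless genes.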

Other observations

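Further gene groups were counted after values had been seen, so their choice is not independent of the data. ADAM metalloproteases, many of which act in sperm, had 20 of 34 peakless genes, and Prss serine proteases had 23 of 39. Sulfotransferases and carboxylesterases, which modify hormones and drugs in liver and gut, had 15 of 21 and 13 of 19. The CatSper sperm calcium channel had 7 of 11. Claudins, which seal epithelial junctions, had 11 of 23, and aquaporins had 5 of 11. Wnt ligands had 4 of 19, or 21.1%, and cadherins 5 of 23, or 21.7%, both near the 25.1% of all coding genes. Fibroblast growth factors had 3 of 20, or 15%. All 9 toll-like receptors, sensors of microbial products, had a promoter peak in at least 1 library, and 6 had it in 4. Core and linker histones had 12 of 73, among them the germ cell genes H2al2a, H2bl1 and H1f7. The unique share was 1.27 to 20.5% at H2bc23, H2ac23, H2ac24, H4c17 and H4c18, and 51.5% at H2ac19. It was 92.5% at H4c12 and 96.4% at H2bc1 and H2ac1.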
